A study of Mus musculus with 11 samples.

Results

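Most of the genes described here encode parts of the proteasome, and all were chosen by symbol. These are genes with a probe set of a single gene symbol starting with Psma, Psmb, Psmc, Psmd, Psme, Psmf or Psmg, then a digit. There were 49 such genes among the 18194 genes measured, and 103 probe sets belonged to them. Where a gene had more than 1 probe set, as 27 of the 49 did, the one with the highest average across the 11 arrays was used. Psme2, an activator subunit, shares its probe set with a second symbol and was not analysed here.

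RNA came from splenic T cells of female C57BL6 mice aged 3 to 4 months, purified by removing other cells with magnetic beads. The mice were wild type or crbn-/-, which lack cereblon, the substrate receptor of an E3 ubiquitin ligase to which thalidomide binds. How the allele was made is not described in the labels. Cells were collected without stimulation (called naive) or after 12 h on plate-bound anti-CD3 at 5 µg/ml with soluble anti-CD28 at 1 µg/ml, antibodies that engage the T cell receptor and its co-receptor (called activated). The groups held 3 wild-type naive, 3 crbn-/- naive, 2 wild-type activated and 3 crbn-/- activated samples, with 1 one-colour Affymetrix array each. The groups did not include cells cultured for 12 h without the antibodies, so activation stands for the antibodies and the culture together. All levels below are log2 RMA values, and a difference of 1 on this scale is a doubling. A gene is said to have risen or fallen where its Benjamini-Hochberg adjusted p in limma, taken over all 18194 genes, was under 0.05. Nothing in the labels says whether the replicates came from separate mice, so the p-values measure the spread between these samples. Crbn read 10.06, 10.21 and 10.09 in wild-type naive cells and 8.97, 9.07 and 8.91 in crbn-/- naive cells, and 9.71 and 9.47 against 8.70, 8.77 and 8.58 in activated cells. The knockout arrays were lower in both states, by 1.13 (SE 0.08, adjusted p = 8.72e-05 in limma) and 0.90 (SE 0.09, adjusted p = 0.00405) on the log2 scale.

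The proteasome is the protease that degrades ubiquitin-tagged proteins in the cytosol and nucleus. Its 20S core is a barrel of alpha and beta rings with 3 kinds of catalytic beta subunit inside, and the 19S cap that docks on it recognises, deubiquitinates and unfolds the substrate. Psmb5, Psmb6 and Psmb7 encode the constitutive catalytic subunits. In lymphocytes and in cells exposed to interferon-gamma, newly built cores take up Psmb8, Psmb9 and Psmb10 in their place, which gives the immunoproteasome, known for making peptides that MHC class I molecules present. Other caps, the activators of the Psme family, open the core without binding ubiquitin.

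After activation nearly the whole constitutive proteasome rose together and the 3 inducible catalytic subunits fell. In wild-type cells 38 of the 49 genes rose, where 20.2% of all genes did, and 3 fell, where 20.9% of all genes did. In crbn-/- cells 42 of the 49 rose, against 20.7% of all genes, and 3 fell, against 22.4%. The median change of the 49 genes was 0.82 in wild-type and 0.95 in crbn-/- cells on the log2 scale, while the median of all genes was 0.06 and -0.03. The 31 genes of the constitutive core, meaning the alpha ring, the constitutive beta ring and the 19S cap, had medians of 0.88 and 1.02. Array by array, the median of these 31 genes relative to the wild-type naive mean was 0.79 and 0.95 in wild-type activated cells and 0.92, 0.92 and 0.89 in crbn-/- activated cells. The naive arrays lay between -0.16 and 0.11, well below every activated array. RMA gives all arrays about the same overall distribution, so these are changes relative to the other transcripts of the cell and not amounts per cell.

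**Figure D1:**
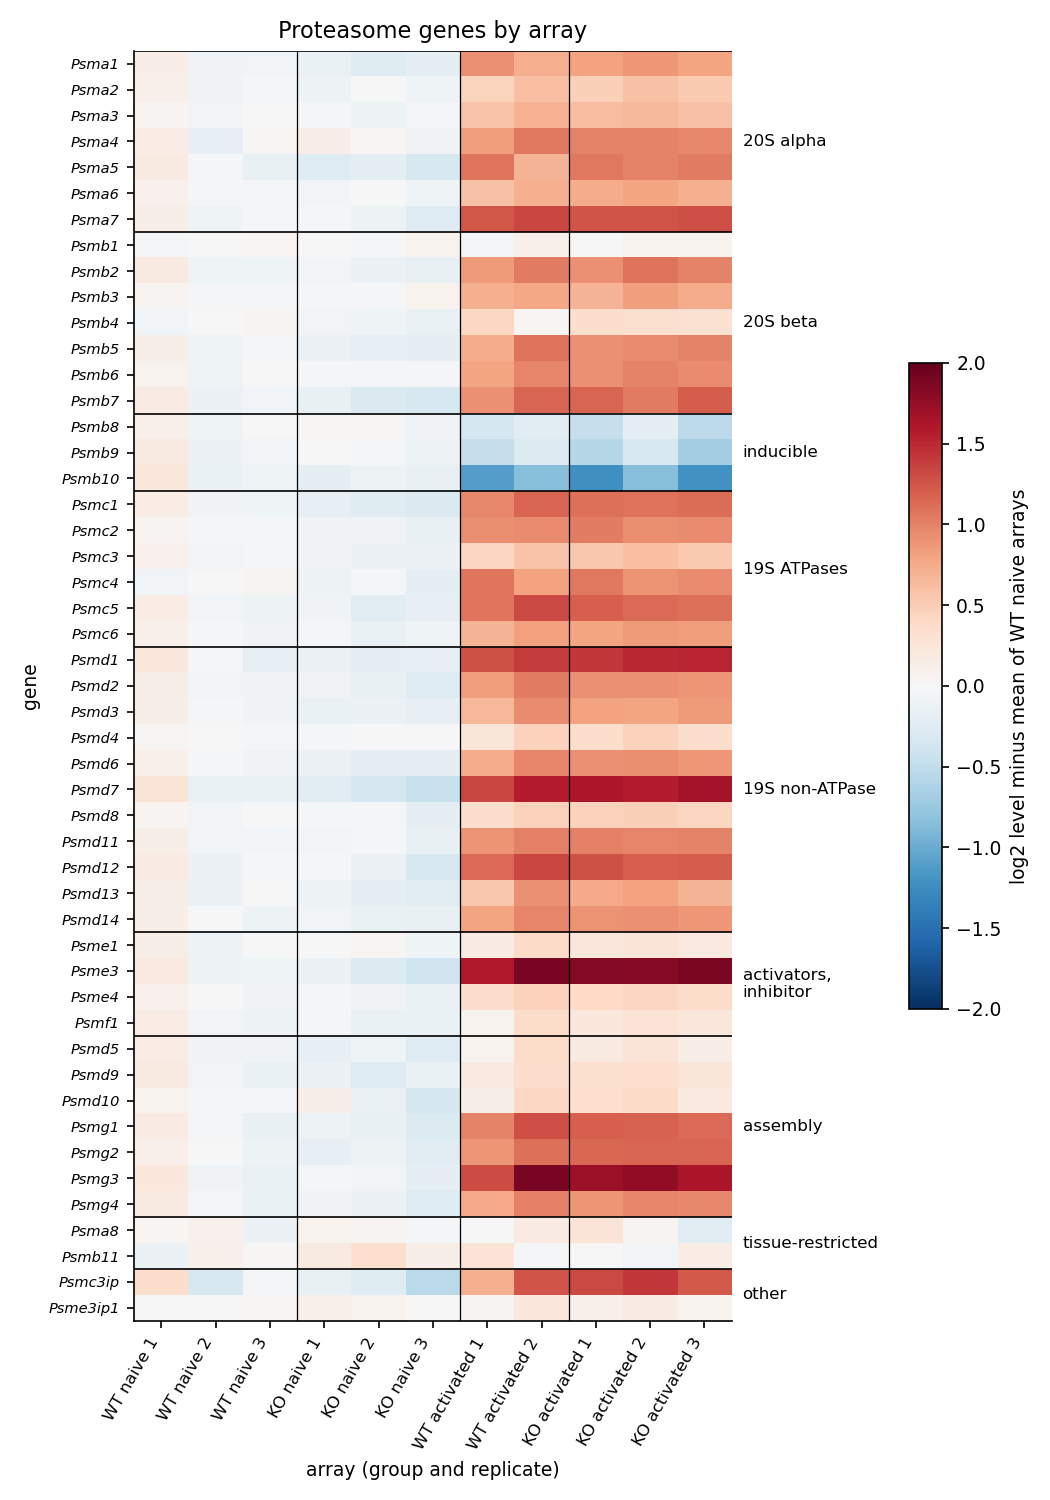
Level of each of the 49 proteasome genes (rows, grouped by class) on each of the 11 arrays (columns), as the log2 RMA value minus the mean of the 3 wild-type naive arrays; red is higher and blue lower, and the colour scale runs from -2 to 2. The 5 activated columns are red for nearly all constitutive genes and blue for Psmb8, Psmb9 and Psmb10, and Psmb1 stays pale throughout.

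The 3 constitutive catalytic subunits rose in both genotypes by amounts near a doubling. Psmb5, which carries the chymotrypsin-like activity, read 10.73, 10.52 and 10.59 in wild-type naive cells, 10.50, 10.45 and 10.44 in crbn-/- naive cells, 11.36 and 11.70 in wild-type activated cells and 11.52, 11.56 and 11.60 in crbn-/- activated cells. Every activated array was above every naive one. The change of Psmb5 was 0.92 in wild-type cells (SE 0.10, 1.89-fold, adjusted p = 7.05e-06 in limma) and 1.10 in crbn-/- cells (SE 0.09, 2.14-fold, adjusted p = 2.90e-07). Psmb6, the caspase-like subunit, read 10.64, 10.48 and 10.57 in wild-type naive, 10.54, 10.52 and 10.53 in crbn-/- naive, 11.36 and 11.55 in wild-type activated and 11.48, 11.55 and 11.51 in crbn-/- activated cells. It was higher on all activated arrays, by 0.89 (SE 0.08) and 0.99 (SE 0.07), with adjusted p = 1.31e-06 and 1.03e-07 in limma. Psmb7, the trypsin-like subunit, read 9.45, 9.17 and 9.23 in wild-type naive, 9.14, 8.99 and 8.96 in crbn-/- naive, 10.20 and 10.45 in wild-type activated and 10.45, 10.32 and 10.49 in crbn-/- activated cells. Its groups did not overlap between states, and it rose by 1.04 (SE 0.11) and 1.39 (SE 0.10), with adjusted p = 4.50e-06 and 7.04e-08 in limma.

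The inducible counterparts went the other way. Psmb8, which replaces Psmb5, read 12.02, 11.83 and 11.93 in wild-type naive, 11.95, 11.96 and 11.86 in crbn-/- naive, 11.57 and 11.72 in wild-type activated and 11.47, 11.74 and 11.41 in crbn-/- activated cells. All activated arrays were below all naive ones, but the gap to the nearest naive array was small. Psmb8 fell by 0.28 in wild-type cells (SE 0.10, adjusted p = 0.0423 in limma) and by 0.38 in crbn-/- cells (SE 0.09, adjusted p = 0.00398). The wild-type call on Psmb8 held in only 9 of 21 alternative settings and was lost when any of 7 arrays was left out. Among these, the log2 change was -0.24 (adjusted p = 0.124) without wild-type naive replicate 1, -0.29 (adjusted p = 0.0745) without wild-type naive replicate 3, and -0.21 (adjusted p = 0.244) and -0.36 (adjusted p = 0.0507) without wild-type activated replicate 1 or 2. The other 3 were crbn-/- arrays, which enter only through the shared variance, and gave adjusted p of 0.0514 to 0.0555. A dimmer probe set of Psmb8, of a type open to cross-hybridisation, gave -0.01 and 0.08 with adjusted p = 0.959 and 0.711, so the fall of this gene rests on its brighter probe set.

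Psmb9, which replaces Psmb6, read 11.47, 11.17 and 11.24 in wild-type naive, 11.30, 11.26 and 11.19 in crbn-/- naive, 10.82 and 11.02 in wild-type activated and 10.72, 10.97 and 10.61 in crbn-/- activated cells. Again no activated array reached a naive one. The log2 change was -0.38 (SE 0.12, adjusted p = 0.0203 in limma) and -0.48 (SE 0.10, adjusted p = 0.00174). The wild-type call on Psmb9 held in 17 of 21 alternative settings; it was lost without wild-type naive replicate 1 (-0.29, adjusted p = 0.0727) and without wild-type activated replicate 1 (-0.28, adjusted p = 0.175). Psmb10, which replaces Psmb7, moved most: 11.52, 11.15 and 11.20 in wild-type naive, 11.10, 11.19 and 11.14 in crbn-/- naive, 10.19 and 10.44 in wild-type activated and 10.06, 10.45 and 10.08 in crbn-/- activated cells. Its activated arrays were all far below its naive ones. Psmb10 fell by 0.98 (SE 0.13, 1.97-fold, adjusted p = 5.72e-05 in limma) and by 0.94 (SE 0.12, 1.92-fold, adjusted p = 1.98e-05), and kept its call in all 21 alternative settings in each genotype.

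**Figure D2:**
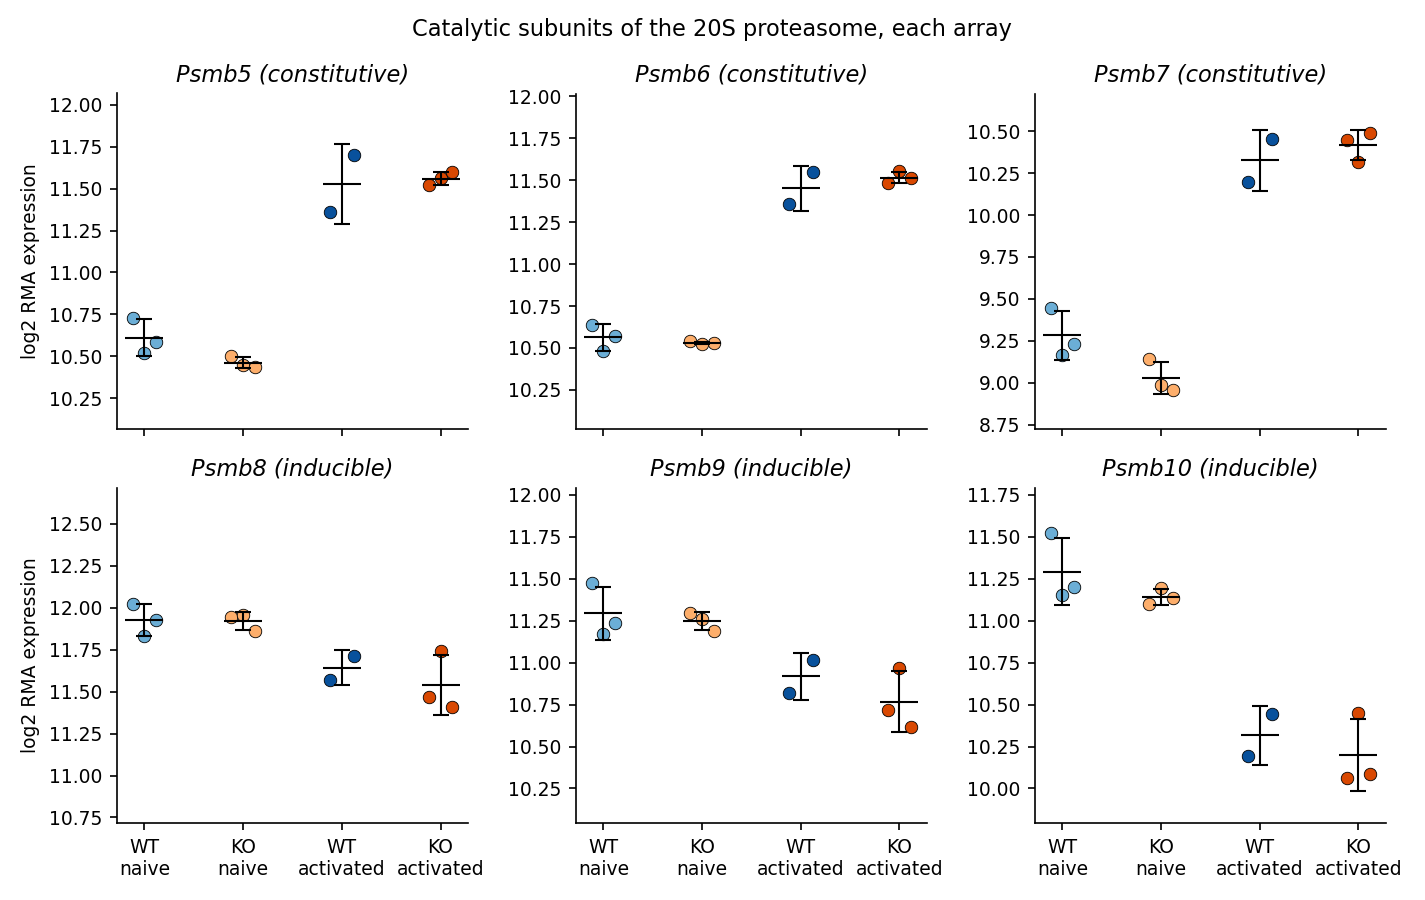
Log2 RMA value (vertical axes, each spanning the same height of 2 but centred on its own gene) of the constitutive catalytic subunits (top) and the inducible subunit that replaces each (bottom); points are arrays, long bars group means and whiskers the SD, for 3 wild-type (WT) naive, 3 crbn-/- (KO) naive, 2 WT activated and 3 KO activated arrays. The top genes are higher and the bottom genes lower in activated cells of both genotypes.

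Markers of cell types moved with the same comparison. Of 7 measured B cell markers, 5 fell in each genotype, and their summed linear level was 12268 to 13521 in wild-type naive, 13733 to 16051 in crbn-/- naive, 4043 to 5239 in wild-type activated and 5440 to 6171 in crbn-/- activated arrays. Most of this sum was Ighm, whose log2 mean in wild-type naive cells was 13.50, against 8.75 for Ms4a1, the next brightest. Of 7 T cell markers 6 fell in each genotype, among them Cd3e, Cd2 and Thy1, with sums of 29015 to 32177, 31412 to 32310, 17792 to 18911 and 16479 to 17778 in the same order of groups. The remaining marker, Cd5, rose in wild-type cells, from a mean of 11.25 to 11.52, and did not pass in crbn-/- cells. Of 8 markers of macrophages and monocytes 5 fell in each, with sums of 750 to 877, 794 to 1279, 511 to 516 and 475 to 576. The sums of 6 erythroid markers were 2019 to 7313, 698 to 2735, 732 to 805 and 525 to 916. Of these 6 markers, 4 fell in wild-type and 1 fell in crbn-/- cells. Dendritic cell markers went the other way in their sum: 479 to 510, 511 to 573, 807 to 996 and 1181 to 1302, with 2 of 7, Ccl22 and Ccl17, higher in each genotype and 3 and 2 lower. The 4 NK cell markers summed to 2860 to 2965, 2652 to 3524, 3183 to 3688 and 3258 to 4139, mostly from Nkg7 and Eomes. Among them 1 rose in each genotype, while 1 fell in wild-type and 2 fell in crbn-/- cells. Klra8 had naive and activated means of 5.31 and 4.40 in wild-type and 6.25 and 4.71 in crbn-/- cells. The 5 neutrophil markers summed to 351 to 486, 235 to 1011, 175 to 182 and 165 to 259, and 2 fell in each genotype. No B cell or T cell marker lay below the lower quartile on every array. The part of these markers in the falls of Psmb8, Psmb9 and Psmb10 and in the rises was not tested, and fewer cells of a type and less RNA per cell cannot be told apart in bulk samples.

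Because levels of different probe sets cannot be set against each other, the balance between the subunits of a pair was followed as the change, within arrays, of the inducible minus the constitutive log2 level. It fell by 1.20 (SE 0.11) in wild-type and by 1.48 (SE 0.09) in crbn-/- cells for Psmb8 and Psmb5, which is 2.30-fold and 2.79-fold. For Psmb9 and Psmb6 the balance fell by 1.26 (SE 0.09) and by 1.47 (SE 0.08). For Psmb10 and Psmb7 the change of the balance was -2.02 (SE 0.16) and -2.33 (SE 0.15), or 4.05-fold and 5.04-fold lower. In none of these pairs did an activated array overlap a naive one of its genotype. Between genotypes the balance differed by at most 0.21 in size in either state. The genotypes did not overlap for Psmb9 and Psmb6 in activated cells, with a difference of -0.21 (SE 0.09), or for Psmb8 and Psmb5 in naive cells, with 0.14 (SE 0.09), and overlapped in the other 4 cases.

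Psmb8 and Psmb9 lie in the MHC region of chromosome 17, where the order of protein-coding genes is Psmb9, Tap1, Psmb8, Tap2, and Psmb9 and the peptide transporter gene Tap1 start 226 bases apart in opposite directions. The promoters of the inducible subunits are shown because these genes moved opposite to the constitutive subunits they replace, of which Psmb5 and Psmb6 are shown beside them; Psmb7 was not found in the table. The sequences are RefSeq's, on GRCm38.p6, and run 5′ to 3′ in the direction of the gene from 250 bases before the start to 50 after it. Psmb8 is at chr17:34197945-34198244 (plus strand), Psmb9 at chr17:34187281-34187580 (minus strand), Psmb10 at chr8:105938343-105938642 (minus strand), Psmb5 at chr14:54617946-54618245 (minus strand) and Psmb6 at chr11:70525107-70525406 (plus strand). Capitals mark the letters that a search for 4 motifs on both strands found: the STAT core TTCNNNGAA in Psmb8, CCAAT, the box bound by NF-Y, on the reverse strand in Psmb9, and TGACNNNGC, the core of the antioxidant response element, in Psmb5 and Psmb6. Psmb10 has no capitals because none of the motifs was found in it.
Psmb8: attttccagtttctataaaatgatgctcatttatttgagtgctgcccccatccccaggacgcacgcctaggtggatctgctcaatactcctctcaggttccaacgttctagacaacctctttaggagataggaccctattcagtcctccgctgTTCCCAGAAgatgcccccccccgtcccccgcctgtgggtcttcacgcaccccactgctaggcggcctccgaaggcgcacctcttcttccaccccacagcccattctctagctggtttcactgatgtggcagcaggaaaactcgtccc
Psmb9: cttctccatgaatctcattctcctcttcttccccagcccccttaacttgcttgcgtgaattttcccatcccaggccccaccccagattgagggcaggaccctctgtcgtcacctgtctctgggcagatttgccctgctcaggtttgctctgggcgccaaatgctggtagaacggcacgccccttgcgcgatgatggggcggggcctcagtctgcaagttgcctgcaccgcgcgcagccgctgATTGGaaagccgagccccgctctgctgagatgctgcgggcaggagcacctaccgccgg
Psmb10: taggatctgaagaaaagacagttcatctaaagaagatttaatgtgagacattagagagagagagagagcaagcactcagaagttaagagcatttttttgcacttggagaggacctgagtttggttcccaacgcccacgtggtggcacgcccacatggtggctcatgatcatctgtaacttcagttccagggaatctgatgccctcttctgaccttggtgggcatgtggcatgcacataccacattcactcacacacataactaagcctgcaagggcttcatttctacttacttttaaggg
Psmb5: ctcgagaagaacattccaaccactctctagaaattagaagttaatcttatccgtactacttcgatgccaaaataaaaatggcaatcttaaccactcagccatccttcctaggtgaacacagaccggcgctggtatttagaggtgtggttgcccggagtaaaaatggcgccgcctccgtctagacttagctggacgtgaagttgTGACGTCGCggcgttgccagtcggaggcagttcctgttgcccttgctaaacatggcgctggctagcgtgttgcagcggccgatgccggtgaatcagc
Psmb6: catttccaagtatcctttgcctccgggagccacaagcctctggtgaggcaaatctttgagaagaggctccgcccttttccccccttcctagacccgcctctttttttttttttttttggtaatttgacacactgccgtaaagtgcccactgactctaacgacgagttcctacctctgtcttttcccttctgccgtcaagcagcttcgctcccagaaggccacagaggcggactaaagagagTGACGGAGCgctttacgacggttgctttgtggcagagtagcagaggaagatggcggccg
The first base of the match lay 97 bases before the start in Psmb8, 8 in Psmb9, 47 in Psmb5 and 9 in Psmb6. Over the 44 promoters found for 41 of the 49 genes, CCAAT was present in 36.4%, against 37.4% of all 32851 promoters of the table, and TGACNNNGC in 13.6%, against 12.4%. The STAT core was present in 6.82% against 8.3%. GAAANNGAA, the core of the interferon response element, was present in 15.9% against 8.56%, but in 0 of the 3 promoters of inducible subunits. The STAT and interferon cores share the letters GAA, so matches to them can overlap, and a match describes letters in a window and not a bound site.

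The other subunits of the 20S core rose with the constitutive catalytic ones, except for Psmb1 and, in wild-type cells, Psmb4. All 7 alpha subunits, which form the outer rings and the gate of the barrel, rose in both genotypes, with medians of 0.82 and 0.95. Psma7 rose most, by 1.29 (SE 0.09) and 1.40 (SE 0.08), and Psma2 least, by 0.53 and 0.60. Of the 7 constitutive beta subunits 5 rose in wild-type and 6 in crbn-/- cells. Among the structural ones Psmb2 rose by 0.94 and 1.10 and Psmb3 by 0.74 and 0.75. Psmb1 read 11.78, 11.84 and 11.87 in wild-type naive, 11.82, 11.81 and 11.89 in crbn-/- naive, 11.81 and 11.94 in wild-type activated and 11.82, 11.91 and 11.91 in crbn-/- activated cells. Its groups overlapped, and it changed by 0.04 (SE 0.07) in each genotype, with adjusted p = 0.714 and 0.723 in limma. The 2 dimmer probe sets of Psmb1 did not pass either. Psmb4 read 11.99, 12.03 and 12.10 in wild-type naive, 11.99, 11.95 and 11.91 in crbn-/- naive, 12.45 and 12.08 in wild-type activated and 12.39, 12.35 and 12.34 in crbn-/- activated cells. The second wild-type activated array overlapped the naive range, and the log2 change was 0.23 (adjusted p = 0.0804) in wild-type and 0.41 (adjusted p = 0.00137) in crbn-/- cells. Without wild-type activated replicate 2 the wild-type change of Psmb4 was 0.41 (adjusted p = 0.00244). The Psmb4 probe set used is of a type open to cross-hybridisation. A second Psmb4 probe set, not of that type, passed in both genotypes, with 0.41 (adjusted p = 0.00206) and 0.45 (adjusted p = 3.39e-04).

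The tissue-restricted core subunits did not pass in either genotype. Psma8, the alpha subunit of the testis, read between 4.67 and 5.13 over the 11 arrays, and Psmb11, the thymus subunit, between 4.91 and 5.38, in both cases just above the lower quartile of all probe sets, which was 4.57 on the array where that quartile was lowest. All other proteasome genes had mean levels above the median gene level of 6.63.

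The 19S cap rose as a block. All 6 ATPases of its base (Psmc1 to Psmc6), which form the ring that unfolds substrates and threads them into the core, rose in both genotypes, between 0.50 (Psmc3) and 1.19 (Psmc5) in wild-type cells and between 0.66 (Psmc3) and 1.33 (Psmc1) in crbn-/- cells. Their medians were 0.94 and 1.07. All 11 non-ATPase subunits of the base and lid also rose in both, with medians of 0.88 and 1.06. Psmd7, a lid subunit that pairs with the deubiquitinase Psmd14, read 9.11, 8.73 and 8.74 in wild-type naive, 8.63, 8.52 and 8.42 in crbn-/- naive, 10.20 and 10.43 in wild-type activated and 10.48, 10.44 and 10.52 in crbn-/- activated cells. It was higher on every activated array, by 1.46 (SE 0.12, 2.74-fold, adjusted p = 6.30e-07 in limma) and by 1.96 (SE 0.11, 3.88-fold, adjusted p = 8.85e-09). A dimmer Psmd7 probe set gave smaller rises, 0.71 and 1.28, which passed. The dimmest gave 0.14 and 0.07 and did not pass. Psmd1, the large scaffold of the base, read 10.41, 10.17 and 10.04 in wild-type naive, 10.09, 10.02 and 10.04 in crbn-/- naive, 11.48 and 11.60 in wild-type activated and 11.62, 11.71 and 11.73 in crbn-/- activated cells. There was a wide gap between the states, and Psmd1 rose by 1.33 (SE 0.10, adjusted p = 3.03e-07 in limma) and by 1.64 (SE 0.09, adjusted p = 8.93e-09). The lid subunit Psmd12 rose by 1.23 and 1.38, and Psmd14 itself by 0.88 and 1.01. The smallest changes were those of the ubiquitin receptor Psmd4, 0.35 and 0.40, and of the lid subunit Psmd8, 0.40 and 0.53. A dimmer Psmd4 probe set gave 0.49 and 0.56, which passed. The dimmest Psmd4 probe set gave 0.06 and -0.14 and did not pass. Psmd2, Psmd3, Psmd6, Psmd11 and Psmd13 lay between 0.72 and 0.96 in wild-type cells and between 0.91 and 1.07 in crbn-/- cells.

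The chaperones that assemble the particle, which are not part of the finished proteasome, included some of the largest changes. Psmg1, Psmg2, Psmg3 and Psmg4, which build the 20S rings, rose in both genotypes. Psmg3 read 9.17, 8.89 and 8.83 in wild-type naive, 8.93, 8.91 and 8.77 in crbn-/- naive, 10.27 and 10.87 in wild-type activated and 10.69, 10.74 and 10.60 in crbn-/- activated cells. The activated arrays were all higher, although the wild-type pair lay apart, and Psmg3 rose by 1.61 (SE 0.15, 3.04-fold, adjusted p = 1.68e-06 in limma) and by 1.80 (SE 0.13, 3.49-fold, adjusted p = 1.20e-07). Psmg1 rose by 1.14 and 1.34, Psmg2 by 0.99 and 1.32, and Psmg4 by 0.88 and 1.09. The chaperones of the 19S base moved less. Psmd10 changed by 0.27 (adjusted p = 0.122) and 0.42 (adjusted p = 0.00821), and Psmd5 by 0.22 (adjusted p = 0.109) and 0.36 (adjusted p = 0.00577), so that each passed in crbn-/- cells alone; the difference between the genotypes did not pass for either. Psmd9 changed by 0.27 (adjusted p = 0.0417) and 0.46 (adjusted p = 6.66e-04), but a dim probe set of Psmd9 fell by 1.04 (adjusted p = 9.17e-07) and by 0.55 (adjusted p = 5.94e-05), while another probe set, brighter than the dim one, gave 0.28 (adjusted p = 0.0265) and 0.11 (adjusted p = 0.323). The wild-type call on Psmd9 was also lost when any of 7 arrays was left out, with the lowest value, 0.19 (adjusted p = 0.246), without wild-type activated replicate 2. Over the proteasome genes that passed in wild-type cells, the dim one of Psmd9 was the only 1 of 48 other probe sets to pass in the opposite direction. Of these 48 probe sets 44 had the same direction, and 29 of them passed.

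Of the activators and the inhibitor, Psme3 stood out. Psme3, which forms a nuclear activator ring, read 8.15, 7.85 and 7.87 in wild-type naive, 7.84, 7.67 and 7.55 in crbn-/- naive, 9.56 and 9.85 in wild-type activated and 9.79, 9.78 and 9.84 in crbn-/- activated cells. The lowest activated array was far above the highest naive one. Its rise of 1.75 (SE 0.12, 3.37-fold, adjusted p = 1.22e-07 in limma) and 2.11 (SE 0.11, 4.32-fold, adjusted p = 4.20e-09) was the largest of the 49 genes in both genotypes. A second Psme3 probe set gave 1.22 and 1.83, and another, far dimmer one did not pass. Psme1, a subunit of the activator that interferon-gamma induces, read 12.40, 12.17 and 12.26 in wild-type naive, 12.28, 12.31 and 12.19 in crbn-/- naive, 12.44 and 12.66 in wild-type activated and 12.50, 12.53 and 12.48 in crbn-/- activated cells. The states did not overlap within a genotype, yet the lowest wild-type activated array was close to the highest naive one. Psme1 rose by 0.27 (SE 0.09, adjusted p = 0.0282 in limma) and by 0.24 (SE 0.08, adjusted p = 0.0294), calls that held in 16 and 15 of 21 alternative settings. In wild-type cells the call on Psme1 was lost without naive replicate 2 (0.22, adjusted p = 0.106), naive replicate 3 (0.27, adjusted p = 0.0597) or activated replicate 2 (0.16, adjusted p = 0.240), and in crbn-/- cells without naive replicate 1 or 3 or any activated array (adjusted p of 0.0547 to 0.104). It thus moved opposite to the inducible catalytic subunits, with which it is usually grouped.

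Psme4, the activator found in the nucleus and known from spermatogenesis and DNA repair, read 9.89, 9.80 and 9.74 in wild-type naive, 9.78, 9.74 and 9.67 in crbn-/- naive, 10.16 and 10.28 in wild-type activated and 10.21, 10.24 and 10.18 in crbn-/- activated cells. All activated arrays were higher, by 0.41 (SE 0.08, adjusted p = 7.42e-04 in limma) and 0.48 (SE 0.07, adjusted p = 6.04e-05). Psmf1, the proteasome inhibitor, read 8.88, 8.69 and 8.64 in wild-type naive, 8.72, 8.61 and 8.60 in crbn-/- naive, 8.81 and 9.11 in wild-type activated and 8.96, 9.03 and 8.96 in crbn-/- activated cells. The wild-type states overlapped and the crbn-/- states did not. The log2 change of Psmf1 was 0.22 (SE 0.10, adjusted p = 0.104) and 0.34 (SE 0.09, adjusted p = 0.00725). A pair of genes met the symbol rule, and are counted among the 49, but belong to none of the proteasome classes. Psmc3ip, a factor of meiotic recombination, rose by 0.98 (SE 0.19) and 1.63 (SE 0.17). Psme3ip1 changed by 0.13 (adjusted p = 0.214 in limma) and 0.05 (adjusted p = 0.598).

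Proteins that work with the proteasome but do not carry its symbols were followed in a list of 17 measured genes, of which 11 rose in each genotype, 3 fell in wild-type and 4 fell in crbn-/- cells. Pomp, the maturation factor of the 20S core, rose by 0.83 (SE 0.07) and 0.96 (SE 0.06). Uchl5, a deubiquitinase of the 19S cap, rose by 1.13 and 1.39, and Ecpas, a scaffold that holds core and cap together, by 0.83 and 1.07. Vcp, the ATPase that extracts ubiquitinated proteins, rose by 0.75 and 0.87, its cofactor Nploc4 by 0.69 and 0.88, and the shuttle factor Rad23b by 0.71 and 0.86. Among those that fell were Zfand2a, a stress-induced zinc finger protein, by 1.17 and 0.99, the shuttle factor Ubqln2 by 0.56 and 0.50, and the ubiquitin ligase Ubr4 by 0.44 and 0.38. Usp14, a deubiquitinase that binds the cap, changed by 0.26 (adjusted p = 0.256) and 0.18 (adjusted p = 0.388).

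The genes of MHC class I processing, in which the immunoproteasome takes part, moved in both directions. Of the 17 measured, 4 rose in each genotype, and 9 fell in wild-type and 10 in crbn-/- cells. Those that rose act in the endoplasmic reticulum: the peptidase Erap1 by 0.57 and 0.83, Canx by 0.54 and 0.80, Calr by 0.44 and 0.62, and Pdia3 by 0.39 and 0.43. Tapbp, which acts there too, fell in both genotypes. Its naive and activated means were 12.20 and 11.95 in wild-type cells and 12.19 and 11.82 in crbn-/- cells. The peptide transporter subunit Tap2 fell by 0.57 (SE 0.11) and 0.56 (SE 0.10), while its partner Tap1, the neighbour of Psmb9, changed by -0.24 (adjusted p = 0.0526) and -0.28 (adjusted p = 0.0109). The class I heavy chains H2-K1 and H2-D1 fell by 0.21 and 0.30 in wild-type and by 0.30 and 0.39 in crbn-/- cells. Nlrc5, the transactivator of class I genes, fell by 0.65 and 0.60, Irf9 by 0.96 and 1.05, and Ifngr1, a chain of the interferon-gamma receptor, by 0.82 and 1.23. B2m, Irf1 and Stat2 did not pass in either genotype.

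The same genes responded in both genotypes, with few exceptions. The 38 genes that rose in wild-type cells also rose in crbn-/- cells, the 3 that fell did so in both, and Psmb4, Psmf1, Psmd10 and Psmd5 passed in crbn-/- cells alone on the probe sets used. Psmb1, Psma8, Psmb11 and Psme3ip1 passed in neither. Across the 49 genes the changes in the genotypes, which share no array but the same probe sets, correlated with a Pearson's r of 0.98 and a Spearman's rho of 0.97, given as a description. Over all 18194 genes these were 0.94 and 0.80. Of the 38 genes that rose in both, 37 had the larger rise in crbn-/- cells (97.4%), as did 85.7% of the 2919 genes that rose in both over the whole table, a share counted only over genes that rose in both.

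**Figure D3:**
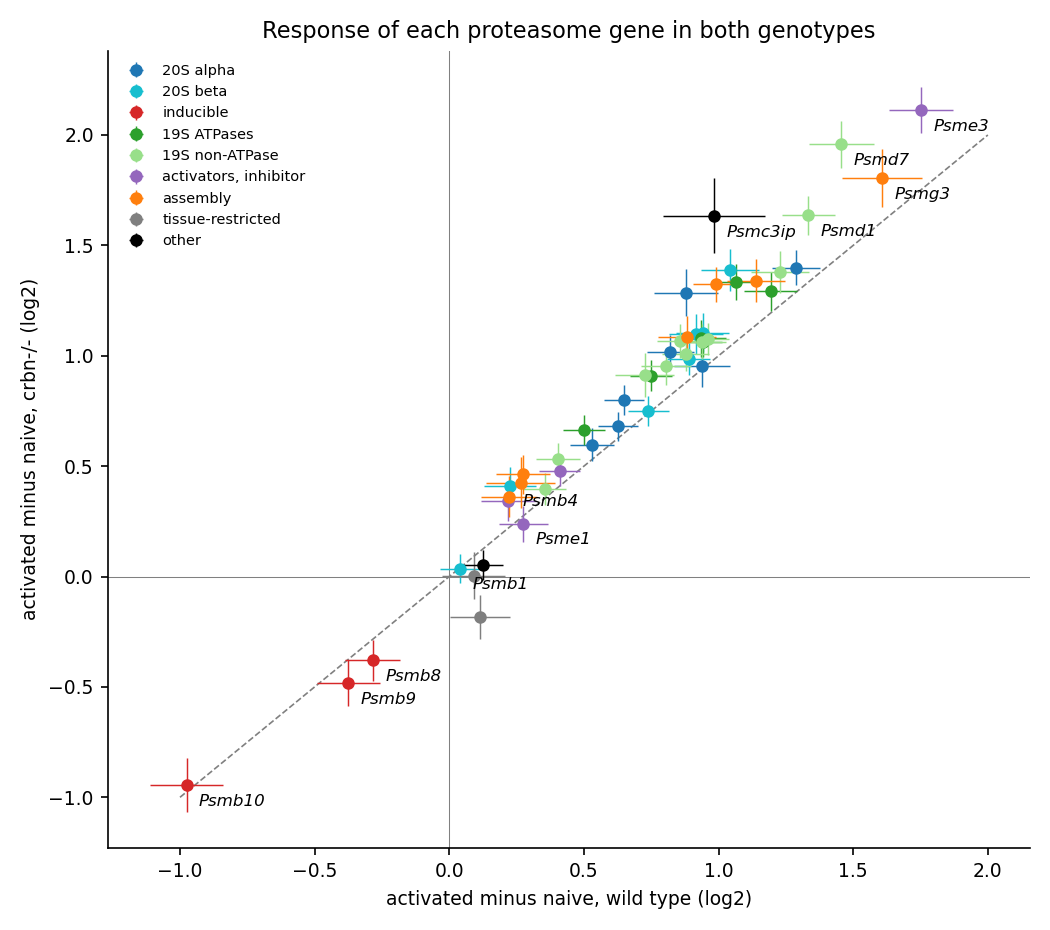
Change from naive to activated cells in log2 units, in wild-type (horizontal axis) and crbn-/- cells (vertical axis), for each of the 49 genes; bars are the standard errors of the fit, colours the class, and the dashed line marks equal change. Most genes lie a little above the line, the 3 inducible subunits are the only ones well below 0 on both axes, and Psme3 lies farthest out.

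That lean did not amount to a called genotype effect for any proteasome gene. In the test of the interaction, the change in crbn-/- minus that in wild-type cells, 0 of the 49 genes passed in limma, as for the whole table, where 0.0% passed; at an unadjusted p under 0.05 there were 8 of the 49 (16.3%) and 13.8% of all genes. The interaction was positive for 42 of the 49 genes, with a median of 0.14, against 45.0% of all genes and a median of -0.03. The median over the 49 depended on single arrays: it was 0.03 without wild-type activated replicate 1, with 31 genes positive, 0.22 without wild-type activated replicate 2, with 45 positive, and 0.09 without wild-type naive replicate 1. The smallest p-values belonged to Psmd7 (0.50, SE 0.16, adjusted p = 0.281), Psmg2 (0.33, adjusted p = 0.291), Psmc3ip (0.65, adjusted p = 0.312), Psma5 (0.41, adjusted p = 0.313) and Psmb7 (0.35, adjusted p = 0.329), none of which passed.

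In naive cells the comparison of crbn-/- with wild type passed for 0 of the 49 genes in limma, where 0.148% of all genes passed. At an unadjusted p under 0.05 there were 6 (12.2%), against 14.5% of all genes. The differences were small and mostly negative, in 43 of the 49 genes, against 47.9% of all genes, with a median of -0.11 and a range from -0.34 to 0.21. Wild-type naive replicate 1 was the highest wild-type naive array for 43 of the 49 genes, against 35.5% of all genes, and without it the median was -0.06, with 38 negative. The erythroid markers moved with the same comparison: 5 of 6 were lower in crbn-/- naive cells at an unadjusted p under 0.05, none of them past the threshold, with a median of -1.33 over the 6, and Klf1 read 10.17 on wild-type naive replicate 1 against 8.60 and 7.65 on the other wild-type naive arrays. All 7 B cell markers were higher in crbn-/- naive cells, by a median of 0.42, and none passed. All 4 NK cell markers were higher too, and Klra8 passed, with means of 5.31 in wild-type and 6.25 in crbn-/- cells (adjusted p = 0.0384 in limma). No marker of the T cell, macrophage, dendritic cell or neutrophil lists passed. The part of these markers in the lower proteasome values was not tested. Psmd7 had the smallest p: its 3 crbn-/- arrays, given above, were all below its 3 wild-type arrays, by 0.34 on average (SE 0.11, adjusted p = 0.199). Psmc1 read 9.45, 9.23 and 9.21 against 9.14, 9.05 and 9.01, also without overlap, with a difference of -0.23 (adjusted p = 0.236). The next were Psmb7 (-0.25, adjusted p = 0.261), Psme3 (-0.27, adjusted p = 0.276) and Psma1 (-0.19, adjusted p = 0.288), which likewise did not overlap and did not pass.

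In activated cells the genotype comparison again passed for 0 of the 49 genes in limma, where 0.0605% of all genes passed, and 0 of the 49 had an unadjusted p under 0.05, against 6.90% of all genes. Differences were positive for 35 genes, or 71.4%, against 43.6% of all genes, with a median of 0.03 and a range from -0.15 to 0.34. The sign of this median rested on 1 array: it was -0.06, with 12 genes positive, without wild-type activated replicate 1, and 0.11, with 42 positive, without wild-type activated replicate 2. The smallest p-values were those of Psmg2 (0.17, SE 0.09, adjusted p = 0.762), Psmc3ip (0.34, SE 0.19, adjusted p = 0.792) and Psmd1 (0.15, SE 0.10, adjusted p = 0.844), followed by Psmd7 and Psma6. Of 7 dendritic cell markers 1 passed, Ccl17, with means of 6.245 in wild-type and 7.063 in crbn-/- activated cells (adjusted p = 0.0180 in limma). No marker of the other lists passed. Among 7 B cell markers 6 were higher in crbn-/- activated cells and 1 lower, with a median of 0.34. The part of these markers in the proteasome values was not tested. Averaged over both states, 0 of the 49 genes passed, where 0.104% of all genes did, and 0 had an unadjusted p under 0.05, against 7.13% of all genes; the differences ran from -0.14 (Psmb10, SE 0.09) to 0.07 (Psmb11). The genes of smallest p there, Psma1, Psmd2, Psmc1, Psmb10 and Psmd5, differed by -0.14 to -0.09. The standard errors of single genes were near 0.1, and a p that did not pass does not show that a gene was equal in the genotypes.

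**Figure D4:**
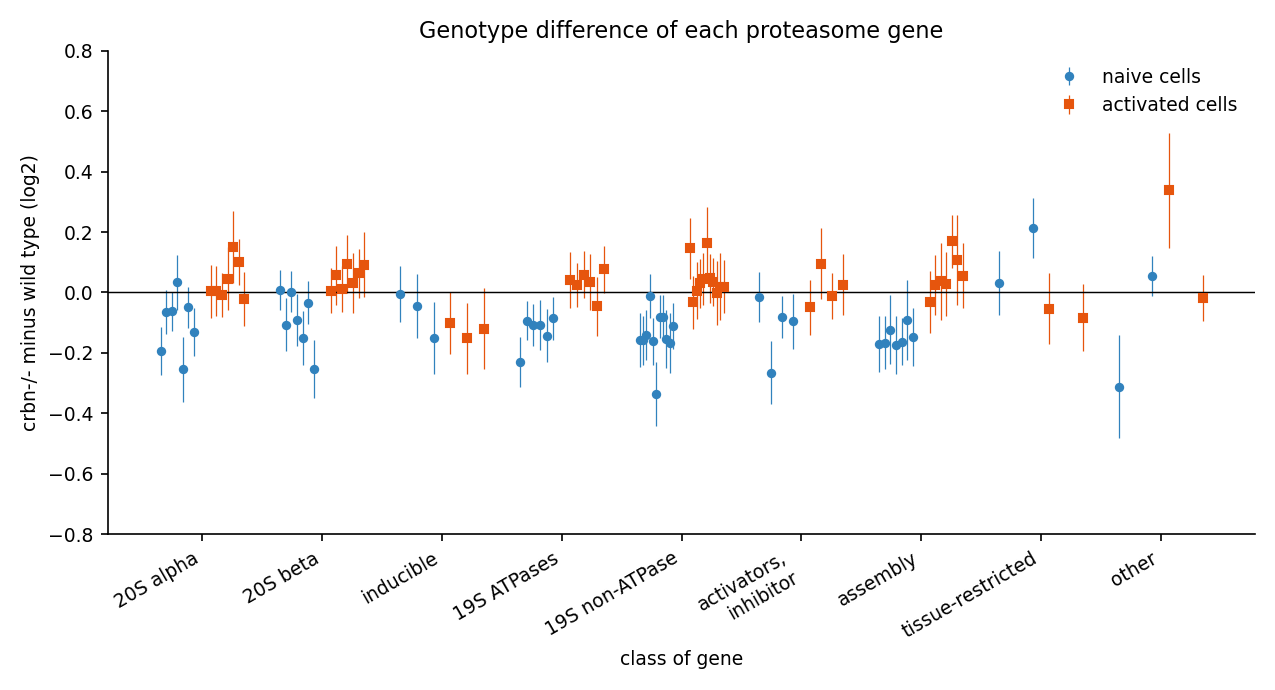
Difference of crbn-/- minus wild type in log2 units (vertical axis) for each proteasome gene, by class (horizontal axis), in naive (circles) and activated cells (squares); bars are the standard errors of the fit. Naive differences lie mostly a little below 0 and activated ones around or a little above it, and none of them passed.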

How the data were processed

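The deposited log2 values of 45101 probe sets on 11 arrays were used as they stood. Per the submitters' processing notes they were made with GCOS, RMA and Partek (no versions stated). The values ran from 2.32 to 15.0 with array medians of 5.84 to 5.89. Of the probe sets 34958 carried 1 gene symbol in the platform's annotation, 932 several and 9211 none. Per gene, the probe set with the highest average was kept, which left 18194 genes. RefSeq tables gave neighbours and promoters (GRCm38.p6).

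The 6 comparisons of the report came from limma 3.58.1 (R 4.3.3) fitted to 4 group means over 11 arrays, moderated variances (prior degrees of freedom 5.46, residual 7) and Benjamini-Hochberg adjustment over 18194 genes. The fit was tested on simulated data. Tables and figures used Python 3.11.15, pandas 2.3.3 and matplotlib 3.10.9. Arrays carry no counts, and their number limits the precision.

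The proteasome genes, the companion and marker lists and the alternatives were chosen with earlier results of these data known. Described array by array were the catalytic subunits, the activators and inhibitor and the 3 largest changes in each direction among the others; the 5 genes of smallest p stand for a genotype comparison in which none passed. Psmb1, Psmb4 and Psmc1 were shown array by array, and Psmd9, Psma8 and Psmb11 singled out, after their values were seen. Alternatives were the mean of a gene's probe sets, a filter on dim genes, other variance models, other scalings, array weights, the replicate number as a block and each array left out; probe sets without the types open to cross-hybridisation were added after seeing the data. Some genes of the companion lists were not analysed here.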

Additional observations from a re-analysis of the deposited data

Results flagged for a closer look

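Psmd7, the lid subunit of the 19S cap, had genotype differences of opposite sign in the states, neither of which passed: -0.34 (adjusted p = 0.199 in limma) in naive and 0.16 (SE 0.12, adjusted p = 0.855) in activated cells. All 3 crbn-/- naive arrays were below the 3 wild-type naive ones, and all 3 crbn-/- activated arrays were above the 2 wild-type activated ones, though the nearest pair read 10.438 and 10.435. The interaction was 0.50 (SE 0.16) on the log2 scale and did not pass (adjusted p = 0.281 in limma). Over 20 alternative settings it ran from 0.33 to 0.62, with adjusted p from 0.127 to 0.537. Over 21 settings the naive difference ran from -0.40 to -0.21 and the activated one from 0.05 to 0.28.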

How the results depend on the processing

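The counts of proteasome genes that rose stayed within 36 to 41 in wild-type and 41 to 42 in crbn-/- cells, and all counts between genotypes and in the interaction stayed at 0, in every alternative run. The number that fell in wild-type cells was 3 in the main fit. It was 1 with unmoderated variances, with array weights or without wild-type naive replicate 1, and 1 to 3 over the arrays left out. Psmb8 lost its wild-type call in 12 of the 21 alternative settings and Psmb9 in 4. Over the arrays left out in turn, both falls were smallest without wild-type activated replicate 1, at -0.21 for Psmb8 and -0.28 for Psmb9. Psmb10 was the gene that kept its call, and the cause was not tested. With wild-type activated replicate 1 or 2 left out, the lone array is assumed to vary like the other groups. Taking the mean of a gene's probe sets turned Psmd9 in wild-type cells to -0.16 (adjusted p = 0.0471 in limma), since its dim probe set went the other way. With that setting Psmb8 changed by -0.15 in each genotype and lost its call in both (adjusted p = 0.279 and 0.219). The genes that fell in wild-type cells were thus not the same ones there as in the main fit. Over 861 values of single genes in wild-type activation 32 lost their call and 1 reversed; over 945 in crbn-/- activation 8 lost it. With the replicate number as a replicate block, Psmb8 fell by 0.32 (adjusted p = 0.0321), Psmb9 by 0.42 and Psmb10 by 1.01 in wild-type cells. Deviations of same-numbered arrays correlated between -0.30 and 0.39, so the numbers were not taken as pairs.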

Other observations

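Known regulators of proteasome genes were followed in a list of 9 measured genes, of which 2 rose in each genotype after activation, and 4 fell in wild-type and 3 in crbn-/- cells. Mafg, a small Maf protein that pairs with factors binding the antioxidant response element, rose by 1.33 (SE 0.12, adjusted p = 1.42e-06 in limma) and 1.56 (SE 0.11, adjusted p = 6.78e-08). Nfe2l1, the factor that raises proteasome genes when proteasome activity falls short, rose by 0.23 (adjusted p = 0.0275) and 0.39 (adjusted p = 2.62e-04). Ngly1, the enzyme that removes sugars from Nfe2l1 and lets it act, fell by 0.84 (SE 0.09) and 1.04 (SE 0.08), and Nfe2l2, its relative of the oxidative stress response, fell by 0.44 and 0.37. Mafk fell by 0.28 and 0.36. The NF-Y subunits Nfya, Nfyb and Nfyc did not pass in either genotype. These are transcript levels, and both Nfe2l1 and Nfe2l2 are known to be controlled as proteins.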
